A study of Homo sapiens with 70 samples.

Results

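The response of HMGA1-depleted fibroblasts to oncogenic RAS was measured by comparing 8 OIS-shA1 libraries with 8 Grow-shA1 libraries, which are 16 of the 70 samples of the series. Members were chosen by their labels alone, as the shHMGA1 columns of the RNA-seq count table at day 0 (Grow-shA1) and after 4OHT for 6 days (OIS-shA1). All were IMR90 cells, a line of human lung fibroblasts, with pLNCX2 ER:HRAS G12V, in which mutant HRAS is fused to an oestrogen receptor domain and becomes active on addition of 4-hydroxytamoxifen (4OHT). Grow-shA1 and OIS-shA1 cells also carried pMSCV miR shHMGA1, a miR30-type hairpin against HMGA1, and OIS-shA1 cells received 100 nM 4OHT. Vector cells with pMSCV miR v, either growing (Grow, 8 libraries) or treated in the same way (OIS, 8 libraries), served for comparison. The hairpin was a single sequence in a transduced population and not in a clone, so an effect on other transcripts cannot be told apart from loss of HMGA1. Both shHMGA1 groups carried it, so it could not separate them by its presence alone. The series asks how HMGA1 shapes gene expression and chromatin in senescence. This comparison asks how the transcriptome differed after RAS induction when HMGA1 was low. None of these groups received 4OHT without ER:HRAS or was kept untreated for 6 days. Effects of active RAS, of 4OHT itself and of time in culture therefore cannot be told apart. Below, RAS stands for the whole treatment.

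HMGA1 is an architectural chromatin protein that binds AT-rich DNA in the minor groove. Oncogenic RAS first drives proliferation and then brings a lasting arrest, oncogene-induced senescence, which runs through the RB and p53 pathways and silences cell-cycle genes. Senescent fibroblasts also secrete cytokines, chemokines and proteases, together called the senescence-associated secretory phenotype (SASP), which depends on NF-kB and C/EBP beta, while fibrous matrix genes are lowered.

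Total counts ran from 14260656 to 18590171 in Grow-shA1 and from 14621297 to 22136571 in OIS-shA1, and one vector OIS library (replicate 4) was shallow at 1903607, which bears only on values that use vector cells. HMGA1 itself (chr6:34204650-34214008, hg19, as are all gene coordinates below) was 35.8 CPM [27.02, 39.1] in Grow-shA1 and 59.7 CPM [51.4, 68.5] in OIS-shA1, with medians followed by the lowest and highest of 8 libraries in brackets, where CPM is the share of the TMM-scaled library total in parts per 1000000. Every shHMGA1 library lay below every vector library, which held 469 CPM [436, 557] in Grow and 745 CPM [631, 825] in OIS. The residual HMGA1 transcript rose with RAS (log2 fold change 0.80, SE 0.07, adjusted p = 4.59e-11, edgeR), in all 8 OIS-shA1 libraries above all Grow-shA1 libraries. In vector cells it rose as well (log2 fold change 0.65), and the test of the difference was not passed (difference 0.17, SE 0.09, adjusted p = 0.172). HRAS, chosen after its values were seen, held counts in which the transgene and the endogenous gene cannot be told apart, and fell from 1860 ± 186 CPM to 1277 ± 72.98 CPM (SD, n = 8 each).

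Fibroblast markers were present in every library, and VIM (vimentin, an intermediate filament protein) stood at 3011 ± 224 CPM in Grow-shA1 and 2482 ± 173 CPM in OIS-shA1 (SD, n = 8 each). Of 11 fibroblast markers, 10 passed the expression filter and were tested, of which 8 fell and 1 rose. The summed level of the 11 went from a range of 27894 to 33545 CPM to a range of 6247 to 7270 CPM. Summed epithelial markers were 46.4 to 71.8 CPM in Grow-shA1 and 44.4 to 51.4 CPM in OIS-shA1. CDH1, KRT5 and SFTPC were at or near 0, so the sum came from among EPCAM, KRT8, KRT18, KRT19 and CLDN4. Of the 8 epithelial markers 3 were tested, of which 1 rose (log2 fold change 0.60) and 1 fell (-1.17). Haematopoietic markers summed to 19.3 to 25.9 CPM and then 39.5 to 56.2 CPM, nearly all from CD68, with PTPRC and CD3E at or near 0. Endothelial markers, nearly all from TEK, summed to 160.6 to 213.5 CPM and then 75.1 to 94.8 CPM. Smooth muscle markers summed to 435.5 to 618 CPM in Grow-shA1 and 37.4 to 47.3 CPM in OIS-shA1, and 3 of 3 tested passed as lower. The part of these marker levels in the results was not tested. In these bulk samples, fewer cells expressing a gene and less RNA per cell cannot be told apart.

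Most of the measured transcriptome of HMGA1-depleted cells changed with RAS induction. Of 13239 genes tested, 9681 (73.1%) passed an adjusted p of 0.05, with 4911 higher in OIS-shA1 (37.1%) and 4770 lower (36%). The groups did not overlap for 5734 genes (43.3%), meaning that all 8 libraries of one group lay beyond all 8 of the other. Most calls were small: 2087 rose and 2463 fell by at least 1.5-fold, 940 rose and 1374 fell by at least 2-fold, and 93 rose and 52 fell by at least 16-fold. The median log2 fold change over all genes was 0.02, which became 0.11 with scaling by library sizes alone. List counts below are read against these shares.

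**Figure D1:**
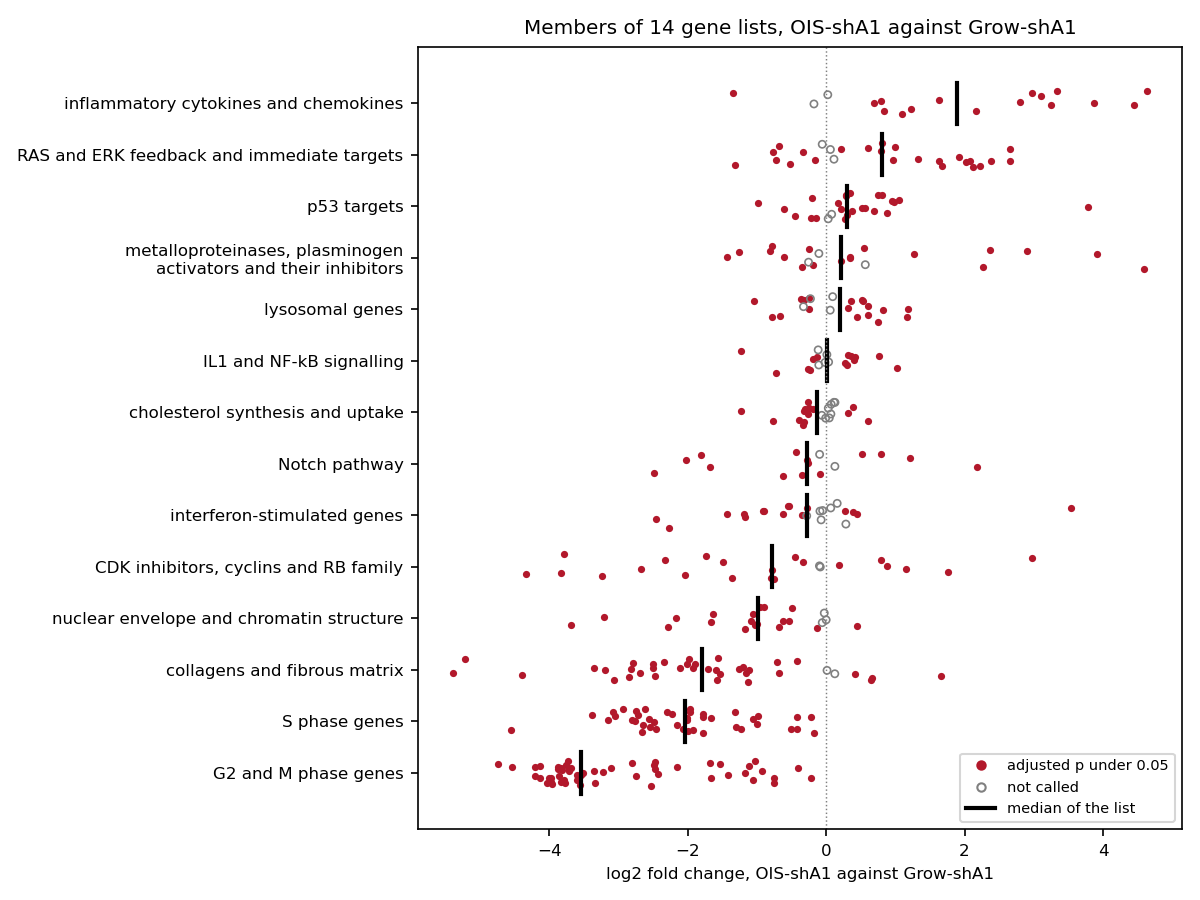
Log2 fold change of OIS-shA1 against Grow-shA1 (horizontal axis) for the tested members of 14 gene lists (rows), with 1 point per gene (filled for adjusted p under 0.05, open for not called) and a bar at each list's median. The G2 and M phase list has the lowest median, -3.54, and the cytokine list has the highest, 1.89.

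The cell cycle programme was lower throughout. All 54 G2 and M phase genes tested fell, with a median log2 fold change of -3.54, and for all 54 the groups did not overlap. All 42 S phase genes tested also fell, with a median of -2.04, and 40 of them did not overlap. MKI67 (the proliferation marker Ki-67, chr10:129894923-129924499) was 352 CPM [302, 407] in Grow-shA1 and 15.4 CPM [11.3, 18.4] in OIS-shA1. The lowest growing library was far above the highest OIS-shA1 library (log2 fold change -4.53, SE 0.08, adjusted p = 9.88e-26). NEK2, a centrosomal mitotic kinase, fell most in the G2 and M list, from 34.3 CPM [28.9, 44.1] in Grow-shA1 to 1.20 CPM [0.965, 1.74] in OIS-shA1 (log2 fold change -4.74, SE 0.11, adjusted p = 2.33e-23). CENPA, the histone H3 variant of centromeres, fell by 4.21 on the log2 scale. E2F8, a repressor of the E2F family, fell most in the S phase list, from 6.94 CPM [4.78, 8.56] in Grow-shA1 to 0.214 CPM [0.0526, 0.588] in OIS-shA1 (log2 fold change -4.56, SE 0.24, adjusted p = 1.27e-15). BRIP1, a DNA helicase of homologous repair (-3.15), and CDCA7 (-3.39) also fell. The called members with the highest adjusted p in these lists were CTCF, the insulator protein (-0.22), TUBB4B, a beta-tubulin (-0.40), SLBP, which binds histone mRNA (-0.17), and TIPIN, a replication fork protein (-0.21, adjusted p = 0.0403). The TIPIN call was lost when any of 7 single libraries was left out (Grow-shA1 replicates 1 and 3, OIS-shA1 replicates 1, 2, 3, 4 and 7), with log2 fold changes between -0.21 and -0.15.

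Promoter sequence of the G2 and M genes held the letters of the cell cycle homology region (CHR, TTTGAA) in 24 of 45 matched genes (53.3%), against 13.6% of all 27305 promoters of the same length and 6.45% of 31 S phase promoters. The window was the 250 bases before the RefSeq start (GRCh38.p14), searched on both strands. CCAAT, the motif of the factor NF-Y, was in 68.9% of G2 and M promoters, 67.7% of S phase promoters and 33% of all. It was also in 47.1% of cytokine promoters, 55.6% of metalloproteinase and plasminogen activator promoters and 36% of matrix promoters. E2F letters (TTTGGCGC, TTTCCCGC or TTTCGCGC) were in 11 of 31 S phase promoters (35.5%), 4.44% of G2 and M promoters and 2.38% of all. A match describes letters and not a bound site. The 3 G2 and M genes with the largest falls are shown with CHR and CCAAT matches in capitals, namely NEK2 (chr1:211675622-211675871, minus strand), MKI67 (chr10:128126424-128126673, minus strand) and CENPA (chr2:26785806-26786055, plus strand). In MKI67 a CHR match and a CCAAT match overlap, and NEK2 has CCAAT matches but no CHR letters in this window.
NEK2: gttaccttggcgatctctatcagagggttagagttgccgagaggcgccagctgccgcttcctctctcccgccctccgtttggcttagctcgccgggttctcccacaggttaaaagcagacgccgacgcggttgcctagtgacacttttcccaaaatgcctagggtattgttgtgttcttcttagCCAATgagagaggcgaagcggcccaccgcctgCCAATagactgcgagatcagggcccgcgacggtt
MKI67: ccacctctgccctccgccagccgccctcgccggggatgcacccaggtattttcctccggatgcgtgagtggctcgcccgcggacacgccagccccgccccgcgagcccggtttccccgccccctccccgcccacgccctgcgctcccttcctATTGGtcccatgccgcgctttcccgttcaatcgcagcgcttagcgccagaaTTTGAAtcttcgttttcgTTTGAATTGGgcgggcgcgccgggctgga
CENPA: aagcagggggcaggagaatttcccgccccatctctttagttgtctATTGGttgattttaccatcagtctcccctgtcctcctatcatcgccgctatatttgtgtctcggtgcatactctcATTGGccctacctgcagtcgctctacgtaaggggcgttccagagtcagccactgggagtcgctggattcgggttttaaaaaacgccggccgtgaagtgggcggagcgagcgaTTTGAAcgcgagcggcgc

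Among CDK inhibitors, cyclins and the RB family, 6 of 23 genes rose and 15 fell (median -0.78). CDKN2B, which encodes the CDK4 and CDK6 inhibitor p15 (chr9:22002902-22009362), was 12.5 CPM [9.35, 17.6] in Grow-shA1 and 95.01 CPM [84.8, 127] in OIS-shA1. The ranges were well apart (log2 fold change 2.98, SE 0.10, adjusted p = 8.1e-20). CDKN2A, the p16 and ARF locus, rose from 3.52 CPM [2.76, 4.74] in Grow-shA1 to 8.15 CPM [5.79, 9.84] in OIS-shA1 (log2 fold change 1.15, SE 0.12, adjusted p = 2.21e-09). CDKN1A (p21), chosen after its values were seen, rose from 667 ± 57.8 CPM to 1216 ± 63.8 CPM (SD, n = 8 each). E2F7, a repressive E2F, rose by 1.76 on the log2 scale, while CDKN2C (p18, -4.33), E2F2 (-3.83) and CCNA2 (cyclin A2, -3.78) fell. CCND1 (cyclin D1) stood at -0.10 and RBL2 (p130) at -0.08, and neither passed the test.

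Of 26 p53 targets, 18 rose and 6 fell (median 0.30), and with library sizes alone 3 fell. GDF15, a stress-induced cytokine, went from 33.3 CPM [27.6, 38.98] in Grow-shA1 to 441 CPM [397, 500.2] in OIS-shA1 (log2 fold change 3.79, SE 0.07, adjusted p = 4.05e-25), with no overlap. SESN2, a stress sensor, rose by 1.06 and TNFRSF10B, the death receptor DR5, by 0.99 on the log2 scale. FAS, a death receptor (-0.61), and PLK2, a polo-like kinase (-0.46), fell. BBC3, the apoptosis gene PUMA, was at 0.03 and AEN, a nuclease, at 0.08, neither past the test. In the nuclear envelope and chromatin list 18 of 22 genes fell and 1 rose (median -0.98). LMNB1 (lamin B1), whose loss is a usual marker of senescence, went from 74.5 CPM [68.1, 86.1] in Grow-shA1 to 7.92 CPM [7.53, 8.71] in OIS-shA1 (log2 fold change -3.20, SE 0.06, adjusted p = 1.96e-25). HMGB2 (-3.69) and HMGB3 (-2.28), chromatin proteins of the HMG box family, fell. HMGA2, the close relative of HMGA1, was the member that rose, from 1645 CPM [1427, 1740] in Grow-shA1 to 2204 CPM [1941, 2360] in OIS-shA1 (log2 fold change 0.45, SE 0.05, adjusted p = 4.85e-09).

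The SASP cytokines rose as a group: 15 of 18 tested were higher, 1 was lower and 2 were not called, with a median log2 fold change of 1.89. CXCL3, a neutrophil chemokine (chr4:74902306-74904524), was 5.85 CPM [3.53, 7.66] in Grow-shA1 and 134 CPM [112, 176] in OIS-shA1. All OIS-shA1 libraries were above all Grow-shA1 libraries (log2 fold change 4.64, SE 0.12, adjusted p = 1.36e-22). CXCL5, another neutrophil chemokine, rose from 38.5 CPM [16.2, 45.1] in Grow-shA1 to 696 CPM [516, 941] in OIS-shA1 (log2 fold change 4.45, SE 0.17, adjusted p = 1.45e-18). IL33, an alarmin of the IL1 family, rose by 3.87 from a level near 0 to 1.69 CPM [1.12, 2.11]. Chosen after their values were seen, IL1B, the upstream cytokine of the SASP, went from 1918 ± 722 CPM to 13119 ± 607 CPM and CXCL8 (interleukin 8) from 4556 ± 979 CPM to 10533 ± 876 CPM (SD, n = 8 each). Both passed the test, at log2 fold changes of 2.79 and 1.23. IL6 (chr7:22765503-22771621) was 1562 CPM [1090, 1900] in Grow-shA1 and 1561 CPM [1315, 1709] in OIS-shA1. The IL6 ranges overlapped fully and the test was not passed (log2 fold change 0.02, SE 0.09, adjusted p = 0.814). IL24, a cytokine of the IL10 family, was the member that fell, from 229 CPM [161, 302] in Grow-shA1 to 90.3 CPM [72.3, 103] in OIS-shA1 (log2 fold change -1.34, SE 0.11, adjusted p = 1.59e-11). CXCL6 was at -0.18 and was not called. Reads of the near-identical CXCL1, CXCL2 and CXCL3 that mapped to more than 1 place were not counted, so their levels are uncertain.

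**Figure D2:**
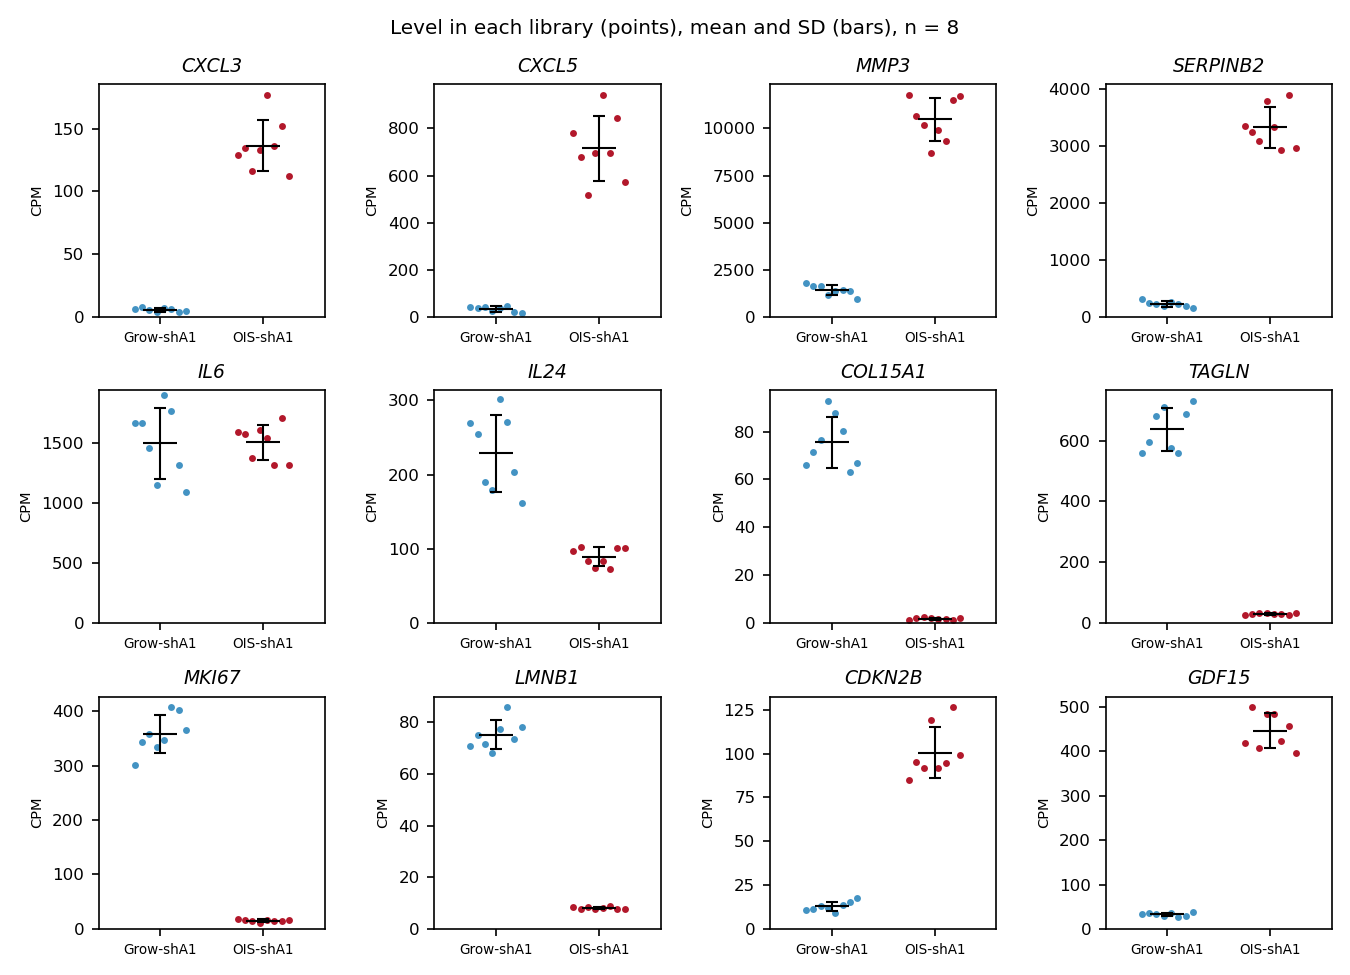
Level in CPM (vertical axes) of 12 genes in each of the 8 Grow-shA1 and 8 OIS-shA1 libraries, 1 point per library, with bars for the mean and SD. CXCL3, CXCL5, MMP3, SERPINB2, CDKN2B and GDF15 lie higher in OIS-shA1 without overlap, COL15A1, TAGLN, MKI67, LMNB1 and IL24 lie lower without overlap, and IL6 overlaps.

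Letters of an NF-kB site (GGG, any 2 bases, then TTTCC or TTCCC, both strands, the same 250-base window) were in 7 of 17 matched cytokine promoters (41.2%) and in 3.52% of all promoters. AP-1 letters (TGANTCA) were in 23.5% of cytokine promoters, in 3 of 9 metalloproteinase and plasminogen activator promoters (33.3%) and in 6.6% of all. The promoters of the called members with large rises are shown with these matches in capitals: CXCL3 (chr4:74038690-74038939, minus strand) and CXCL5 (chr4:73998678-73998927, minus strand) with an NF-kB match each, and SERPINB2 (chr18:63887455-63887704, plus strand) with an AP-1 match.
CXCL3: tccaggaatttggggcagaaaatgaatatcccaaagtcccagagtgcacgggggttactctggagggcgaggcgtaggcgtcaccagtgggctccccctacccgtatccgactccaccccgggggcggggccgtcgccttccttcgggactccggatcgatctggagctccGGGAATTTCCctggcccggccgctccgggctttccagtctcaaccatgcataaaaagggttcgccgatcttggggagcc
CXCL5: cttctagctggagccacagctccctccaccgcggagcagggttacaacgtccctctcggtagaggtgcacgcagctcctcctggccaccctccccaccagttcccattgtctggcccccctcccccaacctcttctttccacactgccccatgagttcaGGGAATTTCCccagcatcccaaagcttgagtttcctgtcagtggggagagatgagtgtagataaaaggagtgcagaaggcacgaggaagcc
SERPINB2: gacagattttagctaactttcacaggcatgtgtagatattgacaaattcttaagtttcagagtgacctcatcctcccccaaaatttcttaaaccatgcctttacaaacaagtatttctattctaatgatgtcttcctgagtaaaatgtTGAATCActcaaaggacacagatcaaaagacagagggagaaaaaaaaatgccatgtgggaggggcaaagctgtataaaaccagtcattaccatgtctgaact

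Genes of the IL1 and NF-kB list moved both ways, and the share called, 73.7%, was near the 73.1% of all genes. Of 19 IL1 and NF-kB signalling genes, 8 rose and 6 fell, with a median of 0.01, close to that of all genes, and 3 fell with library sizes alone. CEBPB, the C/EBP beta factor, rose from 66.95 CPM [55.8, 85.9] in Grow-shA1 to 136 CPM [119.6, 142] in OIS-shA1 (log2 fold change 1.02, SE 0.07, adjusted p = 2.5e-13). The kinases IRAK2 and IRAK1 of the IL1 receptor pathway rose by 0.76 and 0.42 on the log2 scale. BIRC3, a ubiquitin ligase of NF-kB signalling, fell from 62.3 CPM [46.7, 75.3] in Grow-shA1 to 26.96 CPM [21.2, 31.7] in OIS-shA1 (log2 fold change -1.23, SE 0.09, adjusted p = 8.63e-13), and TRAF6, an adaptor ligase, fell by 0.72. RELA, the p65 subunit, was at -0.02 and IL1R1, the IL1 receptor, at 0.01, and neither was called. In the interferon-stimulated list 4 of 23 genes rose and 12 fell (median -0.28), or 7 fell among genes with at least 10 counts in every library. CMPK2, a mitochondrial nucleotide kinase, rose by 3.54, while IFIT2 (-2.46) and IFIT1 (-2.27), antiviral RNA-binding proteins, fell. IRF1, an interferon-response factor, was at -0.05 and USP18 at 0.07, not called.

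Metalloproteinases and protease inhibitors moved both ways. Of 21 metalloproteinases, plasminogen activators and inhibitors tested, 10 rose and 8 fell (median 0.22). MMP3 (stromelysin, chr11:102706532-102714338) was 1410 CPM [930.2, 1820] in Grow-shA1 and 10420 CPM [8720, 11786] in OIS-shA1. No libraries overlapped (log2 fold change 2.90, SE 0.10, adjusted p = 1.63e-19). SERPINB2, the plasminogen activator inhibitor PAI-2, rose from 227 CPM [154, 308] in Grow-shA1 to 3291 CPM [2936, 3894] in OIS-shA1 (log2 fold change 3.91, SE 0.11, adjusted p = 1.13e-21). MMP9, a gelatinase, rose by 4.59 but reached only a median of 1.70 CPM. MMP1 (collagenase), chosen after its values were seen, rose from 6546 ± 1063 CPM to 31136 ± 2174 CPM (SD, n = 8 each). TIMP3 (-1.43) and TIMP2 (-1.26), inhibitors of metalloproteinases, fell. ADAMTS1 (-0.10) and ADAMTS4 (-0.25) were not called.

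Most fibrous matrix genes fell. Of 38 collagen and matrix genes, 32 fell and 4 rose (median -1.79), and for 34 the groups did not overlap. COL15A1, a basement membrane collagen (chr9:101705461-101833069), went from 74.1 CPM [63.1, 92.6] in Grow-shA1 to 1.90 CPM [1.06, 2.34] in OIS-shA1 (log2 fold change -5.39, SE 0.11, adjusted p = 2.74e-24). ELN (elastin, -5.21) and TAGLN (transgelin, an actin-binding protein of contractile cells, -4.39) fell. COL1A1, the main fibrillar collagen chain, chosen after its values were seen, went from 15321 ± 1518 CPM to 2151 ± 273 CPM (SD, n = 8 each, log2 fold change -2.81). POSTN (periostin) rose from 80.7 CPM [62.7, 113] in Grow-shA1 to 245 CPM [226, 324] in OIS-shA1 (log2 fold change 1.65, SE 0.09, adjusted p = 1.26e-15). BGN (biglycan) and TNC (tenascin C) also rose, by 0.66 and 0.65. COL11A1 (0.01) and COL6A1 (0.13, adjusted p = 0.0524) were not called, and COL6A1 passed in 5 other settings and without any of 6 single libraries (Grow-shA1 replicates 5 and 8, OIS-shA1 replicates 1, 3, 7 and 8), with log2 fold changes of 0.13 to 0.22.

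Targets and feedback genes of RAS and ERK rose in 17 of 27 cases and fell in 7 (median 0.81). EREG (epiregulin, an EGF receptor ligand) was 130 CPM [106, 157] in Grow-shA1 and 784 CPM [672, 905] in OIS-shA1 (log2 fold change 2.65, SE 0.07, adjusted p = 6.72e-22). EGR3, an immediate early factor, rose by 2.65 and IER3 by 2.38. SPRY1, a feedback inhibitor of RAS signalling (-1.31), and FOSL1, an AP-1 subunit (-0.72), fell. FOS (0.06) and ETV5 (-0.06) were not called. In the Notch list 4 of 16 genes rose and 10 fell (median -0.27). The receptor NOTCH1 rose by 0.79, the ligand JAG1 by 1.21 and the target HEY1 from 6.62 CPM [3.94, 8.72] in Grow-shA1 to 30.7 CPM [24.5, 34.5] in OIS-shA1 (log2 fold change 2.18, SE 0.11, adjusted p = 5.87e-16). NOTCH3, a receptor of mural cells (-2.49), the target HES4 (-2.03) and the ligand DLL4 (-1.80) fell, while MAML2 (-0.09) and RFNG (0.13) were not called. IER3 and RFNG share 26.5% and 25.4% of their exon bases with other annotated genes.

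Of 22 lysosomal genes, 11 rose and 7 fell (median 0.21). SQSTM1 (the autophagy receptor p62) rose from 238 CPM [226, 306] in Grow-shA1 to 554 CPM [490.3, 607] in OIS-shA1 (log2 fold change 1.19, SE 0.06, adjusted p = 5.49e-16), and GAA (acid alpha-glucosidase) rose by 0.83. GABARAPL1, an autophagosome protein (-1.05), and the cathepsins CTSZ (-0.78) and CTSK (-0.67) fell. TFEB, the regulator of lysosomal genes, was at -0.23, not called. Of 22 cholesterol synthesis and uptake genes, 3 rose and 11 fell (median -0.13), and 6 rose with library sizes alone. NSDHL and FDFT1 (squalene synthase) rose by 0.61 and 0.32. MVK (-1.23), EBP (-0.76) and MVD (-0.39), also synthesis enzymes, fell. HSD17B7 (0.07) and CYP51A1 (-0.01) were not called, and CYP51A1 shares 87.0% of its exon bases with other annotated genes, where fragments were not counted.

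The largest rises, ranked by ratio, were in genes nearly silent in Grow-shA1. Such a ranking favours genes near 0 in 1 group, and these reached the minimum of 1 CPM only through their OIS-shA1 libraries. LCE1F, a late cornified envelope gene, had 0 counts in all 8 Grow-shA1 libraries and 619 in OIS-shA1, at least 186.5-fold higher against 3 counts over the group. IL36RN and IL36B, an antagonist and a cytokine of the IL36 family, had 1 and 2 counts in Grow-shA1 against 342 and 517. Their ratios were 309-fold (95% counting interval 55.1 to 12245) and 234-fold (64.4 to 1935). CYP3A7, a cytochrome P450, was 158-fold higher (43.3 to 1308), LINC02257 98.7-fold (45.1 to 269.9) and ESR2 (oestrogen receptor beta) 90-fold (43.5 to 224.7), where intervals cover counting error only. FER1L6, a ferlin family gene, rose from 0.197 CPM [0.0590, 0.402] in Grow-shA1 to 25.9 CPM [19.8, 32.6] in OIS-shA1 (log2 fold change 6.81, SE 0.19, adjusted p = 7.74e-22). The non-coding genes LINC02392, LINC02154 and LINC01705 rose by 6.89, 6.44 and 6.38 on the log2 scale. Paralogs of the IL36 and late cornified envelope families can share reads, so these levels are uncertain.

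The largest falls included CXCL12, a homeostatic chemokine of stromal cells. It had 1690 counts over the Grow-shA1 libraries and 8 in OIS-shA1, 234-fold lower (95% counting interval 118.3 to 542.2). ACTC1 (cardiac actin) was 170-fold lower (86.1 to 395.2) and CACNG4, a calcium channel subunit, 47.6-fold lower (24.8 to 104.8), though 26% of CACNG4 exon bases overlap other genes. LMOD1 (leiomodin, an actin nucleator of smooth muscle) fell from 52.7 CPM [45.5, 65.3] in Grow-shA1 to 0.791 CPM [0.473, 1.07] in OIS-shA1 (log2 fold change -6.07, SE 0.12, adjusted p = 2e-24). NEURL1B, a ubiquitin ligase (-5.75), PDE7B, a phosphodiesterase (-4.81), KIF20A, a mitotic kinesin (-4.80), and GALNT15, a glycosyltransferase (-4.77), fell on the log2 scale.

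Set beside vector cells, the response ran mostly the same way. In vector cells 9945 of 13304 genes (74.8%) passed. Of 13038 genes tested in both, 8193 were called in both, and 8017 of these (97.85%) had the same direction, 4079 higher and 3938 lower. Another 86 were higher in shHMGA1 cells and lower in vector cells, and 90 were the reverse. Of genes called in both with at least 2-fold, all 1858 had the same direction. Across the 13038 genes Pearson's r was 0.94 and Spearman's rho 0.90. The 2 comparisons share no libraries, but genes are not independent replicates. The median size of the log2 fold change was 0.38 in shHMGA1 cells and 0.41 in vector cells.

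**Figure D3:**
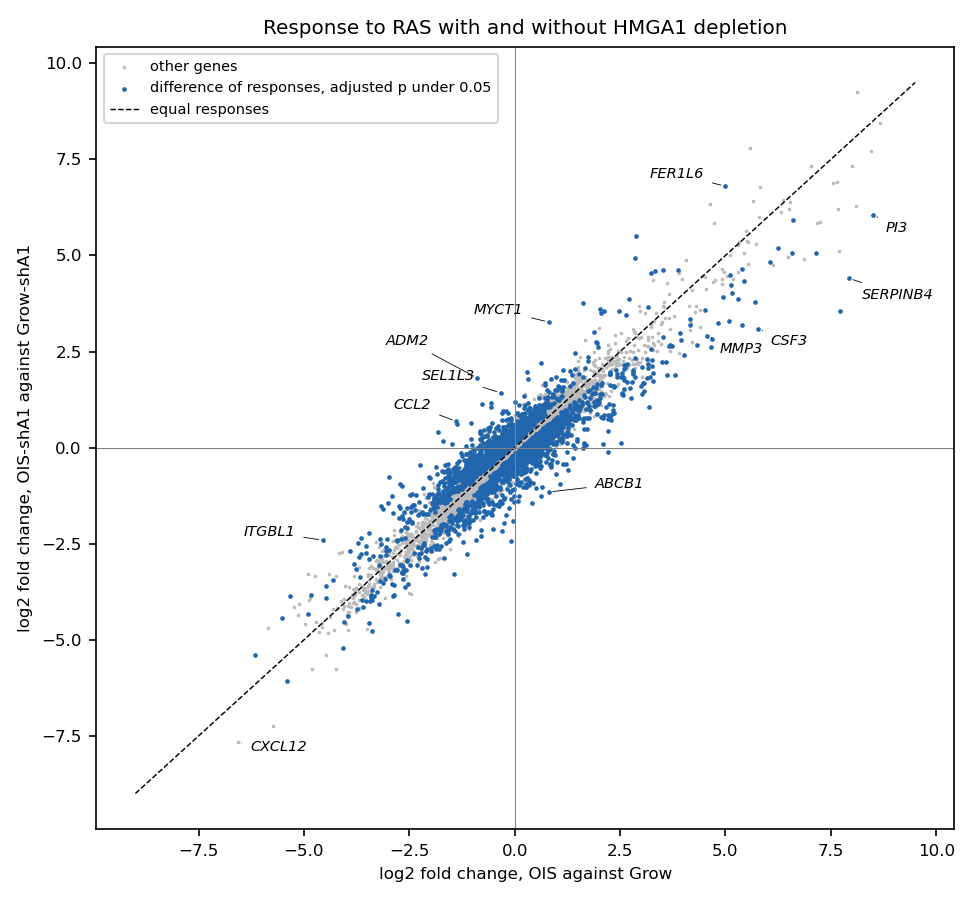
Log2 fold change with RAS in vector cells (horizontal axis) and in shHMGA1 cells (vertical axis), 1 point per gene tested in both, with the dashed line of equal responses and blue points where the difference passed an adjusted p of 0.05. Pearson's r across the 13038 genes is 0.94, and the labelled genes are named in the text.

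The difference of responses was tested as an interaction over all 32 libraries. Of 13903 genes, 3281 (23.6%) passed, with 1697 (12.2%) more positive in shHMGA1 cells and 1584 (11.4%) more negative. This split depends on scaling: with library sizes alone 888 were more positive and 3456 more negative, so that 20.4% of calls were positive against 51.7%. Of the 1852 genes with the same direction and a called difference, 698 had a larger and 1154 a smaller change in shHMGA1 cells. At a difference of at least 1.5-fold 783 genes passed, and at 2-fold 306.

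Among collagen and matrix genes 20 of 38 had a more positive response in shHMGA1 cells and 7 a more negative one. For falling members a more positive response is a smaller fall. It compares changes and not levels, so a lower growing level with shHMGA1 gives one as well. COL15A1 medians were 74.1 CPM with shHMGA1 and 116 CPM with vector in growing cells, and 1.90 and 1.65 CPM after RAS. Those of BGN were 33.8 and 102 CPM in growing cells, and 55.4 and 120 CPM after RAS. Chosen after their values were seen, DCN (decorin) stood at 232 ± 34.4 CPM and 95.04 ± 9.11 CPM in shHMGA1 cells and at 171 ± 17.7 CPM and 22.3 ± 2.28 CPM in vector cells (SD, n = 8 each), log2 fold changes of -1.26 against -2.91 (difference 1.66, SE 0.11, adjusted p = 5.61e-15). LOX (lysyl oxidase, which cross-links collagen) was at -2.35 against -3.64 (difference 1.31, SE 0.10, adjusted p = 1.07e-13). COL15A1 was at -5.39 against -6.16 (difference 0.78, SE 0.20, adjusted p = 0.00279), whereas ELN fell further in shHMGA1 cells, -5.21 against -4.08 (difference -1.12, SE 0.36, adjusted p = 0.0194). S phase genes had a more negative response in 19 of 42 (30 with library sizes alone) and a more positive one in 0. G2 and M genes had a more negative response in 19 of 54 and a more positive one in 1 (0 with library sizes alone).

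Called differences in the inflammatory and RAS target lists were mostly more negative in shHMGA1 cells. Such a difference compares changes and not levels, so a higher growing level gives one as well as a lower level after RAS. In the cytokine list 5 of 18 were more negative and 1 more positive (8 more negative with library sizes alone), in the IL1 and NF-kB list 8 and 1 of 19, and in the RAS and ERK list 12 and 5 of 27. IL1B differed (difference -1.12, SE 0.26, adjusted p = 0.00102) and CXCL8 did not pass (difference -0.11, SE 0.22, adjusted p = 0.77). MMP3 rose by 2.90 against 4.57 (difference -1.65, SE 0.18, adjusted p = 3.27e-09), with growing cells at 1410 CPM [930.2, 1820] with shHMGA1 and 206 CPM [152, 407] with vector. Its OIS libraries held 10420 CPM [8720, 11786] with shHMGA1 and 5102 CPM [4261, 6539] with vector. IL24 differed in the same sense (difference -1.22, SE 0.27, adjusted p = 6.18e-04), with growing levels of 229 CPM [161, 302] with shHMGA1 and 38.2 CPM [16.6, 107] with vector. IL24 in OIS libraries was higher with shHMGA1, at 90.3 CPM [72.3, 103] against 45.7 CPM [38.9, 49.6] with vector. FOS was at 0.06 against 1.68 (difference -1.60, SE 0.28, adjusted p = 2.68e-05) and EGR1, chosen after its values were seen, at 0.80 against 2.27 (difference -1.46, SE 0.09, adjusted p = 1.3e-15). FOS in OIS libraries was lower with shHMGA1 by median, at 3.63 CPM [1.99, 4.98] against 5.60 CPM [4.53, 7.91] with vector. Cholesterol genes were more positive in 10 of 22 and more negative in 0 (6 more positive with library sizes alone). Lysosomal genes were 7 more positive and 2 more negative, but 1 and 5 with library sizes alone. Differences of the remaining lists were 6 each way of 21 in the metalloproteinase list, 1 and 4 of 23 for CDK inhibitors and cyclins, 1 and 9 of 26 for p53 targets, 3 and 4 of 22 for the nuclear envelope, 3 and 6 of 18 for Notch and 2 and 3 of 26 for interferon genes, more positive first. With library sizes alone the nuclear envelope list had 1 more positive and 9 more negative, the Notch and interferon lists had 1 more positive each, and the CDK inhibitor list had 0.

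The most negative differences were in SERPINB4, LINC02957, CSF3, MCPH1-AS1 and PI3. SERPINB4, a protease inhibitor, was 2.83 CPM [0.743, 4.14] in Grow-shA1 and 0.164 CPM [0.101, 0.379] in Grow. After RAS it was 51.9 CPM [38.5, 70.7] in OIS-shA1 and 49.6 CPM [42.1, 54.5] in OIS. The OIS ranges overlapped and the growing ranges did not (difference -3.52, SE 0.40, adjusted p = 1.29e-08). CSF3, the granulocyte growth factor, was 40.6 CPM [13.9, 108] in Grow-shA1 and 7.01 CPM [1.64, 26.5] in Grow, with some overlap, and 378 CPM [306, 479] in OIS-shA1 and 464 CPM [337, 519] in OIS (difference -2.66, SE 0.43, adjusted p = 9.5e-06). PI3 (elafin, an elastase inhibitor) rose by 6.06 against 8.50 (difference -2.43, SE 0.70, adjusted p = 0.00884). Its growing libraries held only 0 to 0.56 CPM in Grow-shA1 and 0 to 0.16 CPM in Grow, where a few counts decide a ratio. The OIS ranges of PI3 overlapped. LINC02957 was not tested in vector cells alone, nor MCPH1-AS1 and NRXN3 in shHMGA1 cells alone, and MCPH1-AS1 was counted without strand, so reads of its partner gene cannot be told apart. The most positive were ADM2, MYCT1, NRXN3, NALCN and ITGBL1. For all of them the Grow-shA1 libraries lay below the Grow libraries, while the OIS-shA1 and OIS ranges overlapped. NRXN3 was at most 0.528 CPM in OIS-shA1 and 0.393 CPM in OIS. MYCT1 rose by 3.27 against 0.81 (difference 2.48, SE 0.37, adjusted p = 1.9e-06), and ITGBL1, an integrin-like protein, was at -2.41 against -4.55 (difference 2.16, SE 0.35, adjusted p = 1.17e-05). MYCT1 ranged from 0.0590 to 0.686 CPM in Grow-shA1 and 1.14 to 2.46 CPM in Grow. After RAS it was 1.68 to 3.70 CPM in OIS-shA1 and 2.26 to 3.64 CPM in OIS. ITGBL1 was 3.16 CPM [2.48, 4.89] in Grow-shA1 and 15.5 CPM [10.5, 21.4] in Grow. In OIS-shA1 ITGBL1 was 0.630 CPM [0.117, 1.18] and in OIS 0.648 CPM [0.344, 1.43]. NALCN, a sodium leak channel, was at 0.42, not called, against -1.81 (difference 2.24, SE 0.39, adjusted p = 3.27e-05).

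Some genes were called in opposite directions in the shHMGA1 and vector comparisons. CCL2, a monocyte chemokine (chr17:32582304-32584222), was 9.18 CPM [8.29, 14.1] in Grow-shA1 and 15.8 CPM [11.97, 19.4] in OIS-shA1, and 11.6 CPM [6.22, 13.97] in Grow and 4.17 CPM [3.21, 5.24] in OIS. It rose in shHMGA1 cells and fell in vector cells, at 0.69 against -1.39 (difference 2.09, SE 0.20, adjusted p = 1.29e-10). SEL1L3 rose from 31.1 CPM [25.9, 40.3] in Grow-shA1 to 86.5 CPM [77.7, 101] in OIS-shA1 and was at -0.33 in vector cells (difference 1.77, SE 0.11, adjusted p = 1.3e-15). ADM2 (a peptide hormone) was at 1.81 against -0.89 (difference 2.71, SE 0.34, adjusted p = 7.68e-08) and EVI2A, which shares 25.25% of its exon bases with other annotated genes, at 1.14 against -0.78 (difference 1.94, SE 0.34, adjusted p = 3.27e-05). MBP was at 0.60 (adjusted p = 0.041), and this call was lost without any of 7 single libraries (Grow-shA1 replicates 1, 2, 3 and 8, OIS-shA1 replicates 3, 6 and 8), at 0.46 to 0.62. In the other sense, ABCB1 (the drug efflux pump P-glycoprotein) fell from 4.07 CPM [2.53, 7.32] in Grow-shA1 to 2.04 CPM [0.996, 2.59] in OIS-shA1 and was 5.56 CPM [4.33, 6.92] in Grow and 9.60 CPM [6.54, 12.4] in OIS (difference -1.95, SE 0.24, adjusted p = 7.14e-08). FRMD3 (-0.95), CES1 (-1.26) and ADAMTS9 (-0.69) fell in shHMGA1 cells and were at 1.07, 0.62 and 0.98 in vector cells.

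**Figure D4:**
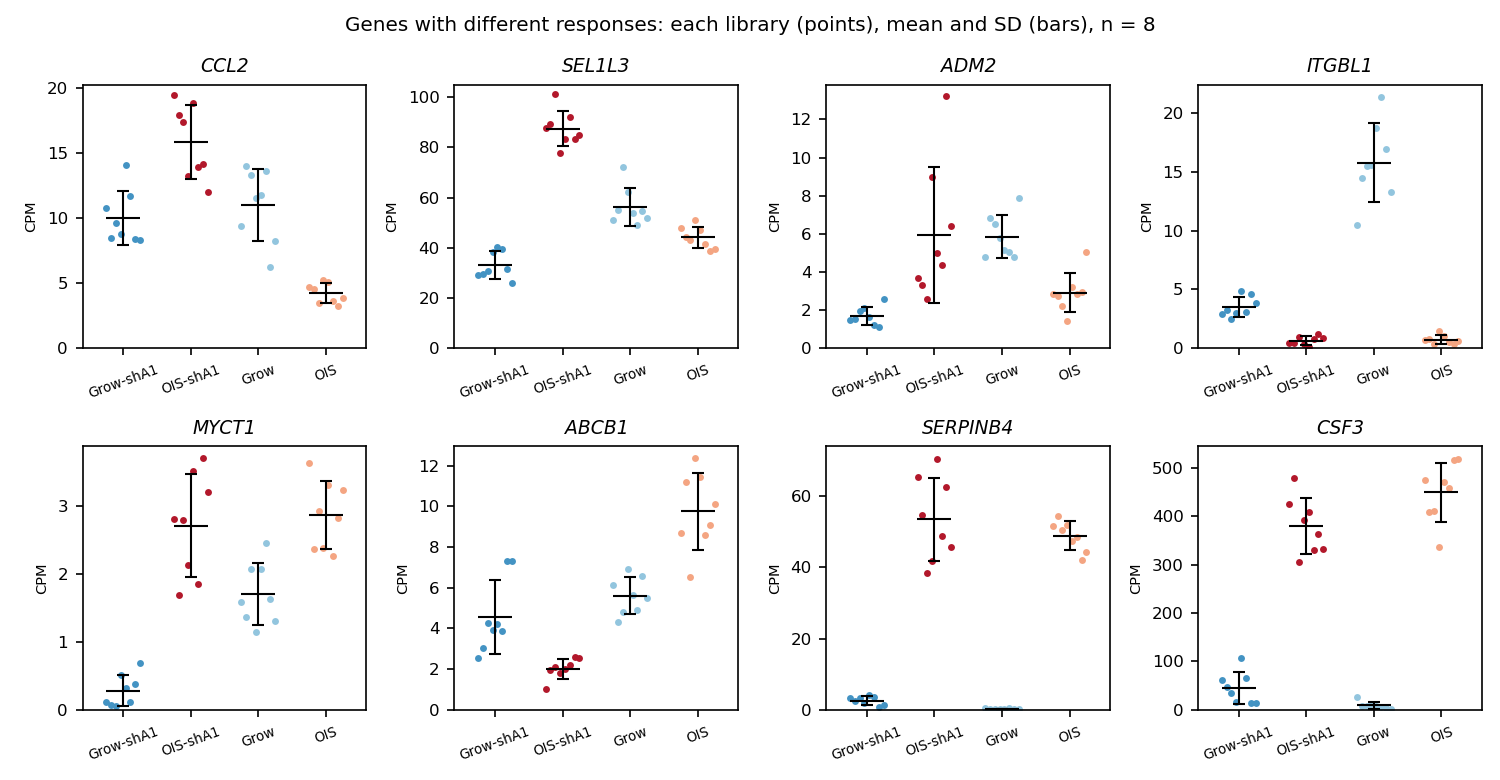
Level in CPM (vertical axes) of CCL2, SEL1L3, ADM2, ITGBL1, MYCT1, ABCB1, SERPINB4 and CSF3 in the 8 libraries of each of Grow, OIS, Grow-shA1 and OIS-shA1, 1 point per library, with bars for the mean and SD. The medians of CCL2 and SEL1L3 lie higher in OIS-shA1 than in Grow-shA1 and lower in OIS than in Grow, and that of ABCB1 shows the reverse.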

How the data were processed

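Poly(A) RNA of the IMR90 libraries was sequenced on stranded kits. The authors deposited raw fragment counts per gene, made per the labels and methods with STAR and featureCounts (Subread) on hg19 with GENCODE annotation. The file header gives unstranded counting of read pairs, so overlapping antisense genes cannot be told apart, and fragments mapping to several places or genes were not counted. Of 44503 gene IDs, 42662 had a symbol (95.9%). SOD2, MMP12, UHRF1 and PECAM1 of the lists were not analysed here. The assignment of libraries to kits and sequencers is not stated in the sources used here, and no batch was checked. Libraries were grouped by the labels, and the 8 columns per group were treated as replicates. The labels and the methods give different replicate numbers, and p-values measure the spread between these libraries.

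Genes were filtered with filterByExpr, scaled by TMM and tested with the quasi-likelihood F test of edgeR 4.0.16 (R 4.3.3), pairwise for each background and as an interaction over 32 libraries, with Benjamini-Hochberg adjustment at 0.05. SE is the log2 fold change divided by the root of F. Levels are CPM with TMM factors over 32 libraries. DESeq2 1.42.0, other scalings, filters, a replicate block and leaving out each library were alternatives. The fits were also run on simulated data in which few genes changed, unlike the data here, so that run cannot check the scaling. Named genes were HMGA1, the 10 largest rises and falls without overlap at 1 CPM or more, up to 3 called members each way and 2 with the highest adjusted p per list, the 5 largest differences each way and the 5 largest each way among opposite calls. Some genes named by this rule are not reported here. Members and lists were chosen with earlier results of these data known.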

Additional observations from a re-analysis of the deposited data

Results flagged for a closer look

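Of the 266 groups of 8 libraries formed by the 133 named genes reported here in Grow-shA1 and OIS-shA1, 14 (5.26%) held a library far from the others by Dixon's test, where chance gives about 1 in 20 (5%). ACTC1 was 0.152 CPM in OIS-shA1 replicate 3, with the next library at 0.0630 CPM. ASF1A was 24.2 CPM in Grow-shA1 replicate 6, with the next library at 20.5 CPM. CACNG4 was 0.200 CPM in OIS-shA1 replicate 4, with the next library at 0.0588 CPM. EGR3 was 9.20 CPM in OIS-shA1 replicate 4, with the next library at 6.997 CPM. ETV5 was 81.3 CPM in OIS-shA1 replicate 7, with the next library at 66.2 CPM. IL36B was 0.124 CPM in Grow-shA1 replicate 7, with the next library at 0 CPM. IL36RN was 0.0575 CPM in Grow-shA1 replicate 1, with the next library at 0 CPM. LINC02957 was 1.07 CPM in Grow-shA1 replicate 5, with the next library at 0.354 CPM. MMP9 was 0.291 CPM in Grow-shA1 replicate 4, with the next library at 0.0655 CPM. NOTCH1 was 44.7 CPM in Grow-shA1 replicate 5, with the next library at 36.5 CPM. NRXN3 was 0.528 CPM in OIS-shA1 replicate 6, with the next library at 0.158 CPM. PDE7B was 0.878 CPM in OIS-shA1 replicate 1, with the next library at 0.411 CPM. SESN2 was 12.8 CPM in Grow-shA1 replicate 2, the lowest, with the next at 15.2 CPM. TIMP2 was 390.4 CPM in OIS-shA1 replicate 6, with the next library at 359 CPM.

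The response to RAS differed between shHMGA1 and vector cells, by the interaction test of edgeR, for 53 of these genes. Some of them were named because they passed this test, so the count says nothing about the named genes as a set. Over all 13903 genes tested, 3281 (23.6%) passed. Values are differences of log2 fold changes, shHMGA1 cells minus vector cells. The 22 positive differences were, in order of size, ADM2 2.71, MYCT1 2.48, NRXN3 2.46, NALCN 2.24, ITGBL1 2.16, CCL2 2.09, MBP 1.98. Next came EVI2A 1.94, FER1L6 1.84, SEL1L3 1.77, CMPK2 1.44, COL11A1 0.88, COL15A1 0.78, ETV5 0.62. Next came CDKN2C 0.60, GABARAPL1 0.43, BGN 0.43, TNC 0.41, TIMP2 0.37, COL6A1 0.32, GAA 0.27. Next came FDFT1 0.19. The 31 negative differences were, in order of size, SERPINB4 -3.52, LINC02957 -2.75, CSF3 -2.66, MCPH1-AS1 -2.63, PI3 -2.43, FRMD3 -2.01, ABCB1 -1.95. These were followed by CES1 -1.86, ADAMTS9 -1.65, MMP3 -1.65, FOS -1.60, GALNT15 -1.36, IL24 -1.22, ELN -1.12. These were followed by DLL4 -1.03, SERPINB2 -1.01, EREG -0.996, BIRC3 -0.91, HES4 -0.81, LMOD1 -0.67, IRAK2 -0.56. These were followed by CTSK -0.56, IRF1 -0.49, PLK2 -0.47, MKI67 -0.46, TAGLN -0.41, TNFAIP2 -0.39, MAML2 -0.36. These were followed by AEN -0.29, CTCF -0.27, OAS3 -0.26.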

How the results depend on the processing

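Without any one library, the count of genes changed in OIS-shA1 against Grow-shA1 ranged from 9528 to 9751, beside 9681. Without vector OIS replicate 4 the vector count was 10169 and the count of differences 3449. DESeq2 gave 9712, 9943 and 3462 for the 3 counts, upper-quartile factors 9728, 10004 and 3287, library sizes alone 9899, 10524 and 4344, and no filter beyond 1 count 11246, 12048 and 2982. With at least 1.5-fold and 2-fold the counts were 4550 and 2314 in shHMGA1 cells, 4855 and 2562 in vector cells, and 783 and 306 for the difference, which at an adjusted p of 0.01 was 2000. Same-direction genes numbered 3656 and 1858 at those folds. Among the named genes recomputed under these alternatives, no called fold change or difference changed sign, and other genes were not followed singly. List counts carry no sign. With library sizes alone the share of called differences that were positive went from 51.7% to 20.4%, and the balance of lysosomal differences turned.

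Library sizes alone moved IL1 and NF-kB genes called lower to 3, p53 targets lower to 3 and cholesterol genes higher to 6, and the split of vector calls from 51.9% to 66.2% higher. Under it, differences numbered 8 more negative for cytokines, 30 for S phase, 9 for the nuclear envelope and 5 for lysosomal genes, and more positive 0 for G2 and M phase, 0 for CDK inhibitors, 1 each for the nuclear envelope, Notch, interferon and lysosomal lists and 6 for cholesterol. With no filter, G2 and M phase and CDK inhibitor genes had 0 more positive. With at least 10 counts in every library, interferon genes called lower were 7, and differences were 0 more positive for CDK inhibitors, 2 for p53 targets and 1 for interferon genes, and 3 more negative for Notch. Without OIS replicate 4, a setting chosen after seeing the data, IL1 and NF-kB genes had 2 more positive. The cause of these moves was not tested. Single-library omissions also made CCND1 (Grow-shA1 replicate 5 or 6), MAML2 (Grow-shA1 replicate 4 or 5, OIS-shA1 replicate 7), RBL2 (Grow-shA1 replicate 8, OIS-shA1 replicate 7), RFNG (Grow-shA1 replicate 5) and ETV5 (OIS-shA1 replicate 7) pass, and without OIS replicate 4 the GAA difference was lost and those of CBX3 and IL1R1 passed.

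Same-numbered Grow-shA1 and OIS-shA1 libraries deviated together with correlations of 0.0049 to 0.1676, against -0.2144 to 0.1546 for other pairs. Of these, 3 of 8 correlated best with their own number, and 0 of 8 in vector cells. These values do not settle whether the numbers mark pairs, and the main fits did not take them as pairs. With the replicate block 9748, 9827 and 3276 genes passed, and p53 targets with a more positive difference were 2. Depth limits genes near 1 CPM, where a few counts decide a ratio.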
